A study of Mus musculus with 8 samples.

Results

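The genes described here are 10 chemokine and cytokine genes, namely Cxcl1, Cxcl5, Cxcl10, Cxcl16, Ccl20, Ccl28, Csf1, Csf3, Il17b and Il33. They were picked by name, with their levels in these libraries known, from 38293 genes in the bulk count tables and 15150 in the single-cell tables. Their differences between SOX4KO and control organoids are therefore given as a description. The name "epithelial" was checked against marker genes. Epcam, Krt8, Krt18, Cdh1 and Cldn7 were counted in every library, whereas the leukocyte marker Ptprc had 0 to 1 UMI, that is 1 uniquely tagged RNA molecule, in each single-cell library. Cd3e, Lyz2 and Adgre1 had 0 bulk reads and were not among the genes listed for single cells, so they have no UMI count. However, Cd68 had 17 to 19 UMIs in each single-cell library, and Itgam had 54 and 45 in the SOX4KO libraries. Of the fibroblast markers, Col1a1 and Pdgfra had 1976 and 1448 reads in all bulk libraries together, and Col1a2, Pdgfrb, Dcn and Lum had 1 to 121. Which cells these came from was not tested.

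Chemokines are small secreted proteins that bind G protein-coupled receptors on leukocytes and set the direction in which these cells migrate. The classes CXC and CC are named for the spacing of the first cysteines, and CXC chemokines with a Glu-Leu-Arg (ELR) triplet before them attract neutrophils. Colony-stimulating factors drive growth and maturation of myeloid cells, and many of these genes are switched on in epithelium through NF-kB.

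Organoids were derived from mouse mammary tumors carrying MMTV-PyMT, MMTV-Cre and Ecadherin-mCFP. The MMTV promoter, active mainly in mammary epithelium, drives the PyMT oncogene and Cre. All control and SOX4KO lines carried these alleles, and the lines were made with CRISPR/Cas9 and grown for 4 days after splitting in medium with FGF2. Bulk RNA-sequencing covered 2 control lines (WT1 and WT3) and 3 SOX4KO lines (H7, M4 and H4), and single-cell RNA-sequencing covered 1 control library (GR17) and 2 SOX4KO libraries (GR18 and GR19). A replicate is a line, and the labels name no repeat cultures of a line.

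Bulk libraries held 3050323 to 4678497 reads on genes. The single-cell libraries held 7714119 to 8296953 UMIs in 362 to 369 cells each. Sox4 RNA does not check the genotype of lines in which the gene was cut, and it was 294 and 373 CPM (counts scaled to library size) in the controls and 178 to 298 CPM in SOX4KO lines. In bulk, 4 of 10 S phase genes and 7 of 11 G2 or M phase genes were called lower in SOX4KO lines, and 5 of 13 tested basal-like markers were called higher. The part of these shifts in the values below was not tested.

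The coding stretches around the first cysteine codons show how the 6 chemokines divide into classes. They are printed from GENCODE transcripts (GRCm38), with the 2 cysteine codons and, where present, the codons of the ELR triplet in capitals.
Cxcl1 (chr5:90891481-90891516, + strand): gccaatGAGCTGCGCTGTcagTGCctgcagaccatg
Cxcl5 (chr5:90759712-90759747, + strand): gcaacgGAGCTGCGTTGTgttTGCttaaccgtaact
Cxcl10 (chr5:92348169-92348204, - strand): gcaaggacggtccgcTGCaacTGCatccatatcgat
Cxcl16 (chr11:70459115-70459150, - strand): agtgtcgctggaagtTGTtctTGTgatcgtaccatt
Ccl20 (chr1:83116902-83117830, + strand, across a splice site): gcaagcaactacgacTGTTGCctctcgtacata
Ccl28 (chr13:119645877-119645909, + strand): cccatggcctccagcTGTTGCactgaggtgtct
Only Cxcl1 and Cxcl5 among these 6 carried the ELR codons. In Cxcl10 and Cxcl16 the cysteine codons were separated by 1 codon with no ELR before them, and in Ccl20 and Ccl28 they were adjacent.

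Upstream sequence was searched for letters that NF-kB factors are known to bind, since several of these genes are known NF-kB targets. The letters GGGANNTTC, on either strand of the 250 bases before the start, were found in 3 of the 6 genes that the RefSeq promoter table (GRCm38.p6) holds, and in 3.23% of all 32851 promoters. A gene was counted if any of its promoters matched, whereas the share is over single promoters, and the genes were picked by name. Nothing is therefore read from the count beside the share, here or for the SOX letters below. The 3 stretches are shown with the match in capitals.
Cxcl1 (chr5:90891149-90891209, + strand): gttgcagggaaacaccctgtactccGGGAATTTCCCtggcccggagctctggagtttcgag
Csf1 (chr3:107760589-107760647, - strand): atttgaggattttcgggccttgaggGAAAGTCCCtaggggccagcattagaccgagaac
Cxcl10 (chr5:92349015-92349073, - strand): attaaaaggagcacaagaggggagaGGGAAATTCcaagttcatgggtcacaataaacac
In Cxcl1 a match on one strand began at base -71 and a match on the other strand, overlapping it, at base -69, counted from the start. The SOX letters ACAAAG were found in 1 of the 6, Ccl20, and in 16.5% of promoters. Cxcl5, Cxcl16, Csf3 and Il17b were not searched.

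In bulk organoids, Il33 was by far the most highly counted of the 10 genes per length. Il33 encodes an alarmin of the IL-1 family that is held in the nucleus and released from damaged cells. It reached 168 ± 112 RPKM (reads scaled to library size and exon length, SD, n = 5), with a lowest library of 63.5. Csf1 with 15.4 ± 4.32 RPKM, Cxcl16 with 15.3 ± 5.18 and Il17b with 15.0 ± 3.53 came next and did not differ beyond their spread. Cxcl1 with 4.89 ± 2.11 RPKM and Csf3 with 4.89 ± 3.25 followed, and they too could not be told apart. Ccl28, Cxcl10 and Cxcl5 lay between 0.663 and 0.943 RPKM on average, each with libraries inside the range of the others. Ccl20 had 1 read in the 5 libraries together.

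Csf1 and Cxcl16 were the 2 members called between SOX4KO and control lines, both higher in SOX4KO. Of the 10 genes, 7 passed the filter on low counts and were tested with edgeR's quasi-likelihood test over 11682 genes, of which 4.1% were called higher and 6.27% were called in either direction at an adjusted p under 0.1. Nothing is read from the members' share, since they were picked with these values known. In bulk, fewer cells that make an RNA and less RNA per cell cannot be told apart.

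Csf1 encodes the growth factor of macrophages. It was counted at 60.4 CPM in WT1 and 54.2 in WT3, and SOX4KO lines H7, M4 and H4 had 104, 89.4 and 99.4 CPM. The control lines lay below the SOX4KO lines with no overlap, and groups without overlap, in either direction, were found for 36.9% of all tested genes. The log2 fold change was 0.77 with a standard error of 0.17 and an edgeR adjusted p of 0.0547.

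Cxcl16 encodes a membrane-bound chemokine that is released by proteases and binds CXCR6. It was counted at 31.5 CPM in WT1 and 30 in WT3, against 45.3 in H7, 63.2 in M4 and 60.7 in H4. Again the groups did not overlap, with a log2 fold change of 0.87, a standard error of 0.21 and an edgeR adjusted p of 0.0663. Neither gene was called when WT1 or WT3 was left out, and Cxcl16 was also not called without H4 (adjusted p = 0.116). Zmynd15 overlaps Cxcl16 on the opposite strand and had 37 reads in all, against 877 for Cxcl16.

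The neutrophil chemoattractant Cxcl1 was at 10.6 and 9.53 CPM in WT1 and WT3 and at 2.60, 13.3 and 9.80 CPM in H7, M4 and H4. Only H7 lay below the controls, and the log2 fold change was -0.26 with a standard error of 0.54 and an edgeR adjusted p of 0.859. Csf3, which encodes the growth factor of neutrophils, was at 4.91 and 2.58 CPM in the controls and at 8.07, 4.67 and 14.3 CPM in H7, M4 and H4. M4 lay inside the control range, and the log2 fold change of 1.31 with a standard error of 0.54 was not called (edgeR adjusted p = 0.249).

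Il33 had a log2 fold change of -1.21 with a standard error of 0.50 and an edgeR adjusted p of 0.249. The control lines WT1 and WT3 had 505 and 969 CPM, and H7, M4 and H4 had 183, 196 and 573 CPM. H4 lay between the control lines, and without H4 the difference was called with a log2 fold change of -1.96 (edgeR adjusted p = 0.0161).

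Ccl28, a mucosal chemokine that attracts plasma cells and eosinophils, was at 10.8 and 3.58 CPM in the controls and at 2.08, 1.80 and 4.54 CPM in H7, M4 and H4. Here too H4 fell inside the control range, and the difference was not called (log2 fold change -1.29, standard error 0.60, edgeR adjusted p = 0.308). Il17b, a member of the IL-17 family that binds IL17RB, was at 11.9 and 15.9 CPM in WT1 and WT3 and at 10.4, 19.0 and 15.5 CPM in H7, M4 and H4. The groups overlapped and the log2 fold change was 0.09 with a standard error of 0.32.

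Cxcl10, Cxcl5 and Ccl20 were not tested because of low counts. Cxcl10, an interferon-induced attractant of T cells, had 7 and 15 reads in WT1 and WT3, and 7, 4 and 1 reads in H7, M4 and H4. The gene Art3 overlaps it on the opposite strand and had 87 reads in all. Cxcl5, a neutrophil chemoattractant like Cxcl1, had 1 and 5 reads in the controls and 1, 11 and 3 in H7, M4 and H4.

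**Figure D1:**
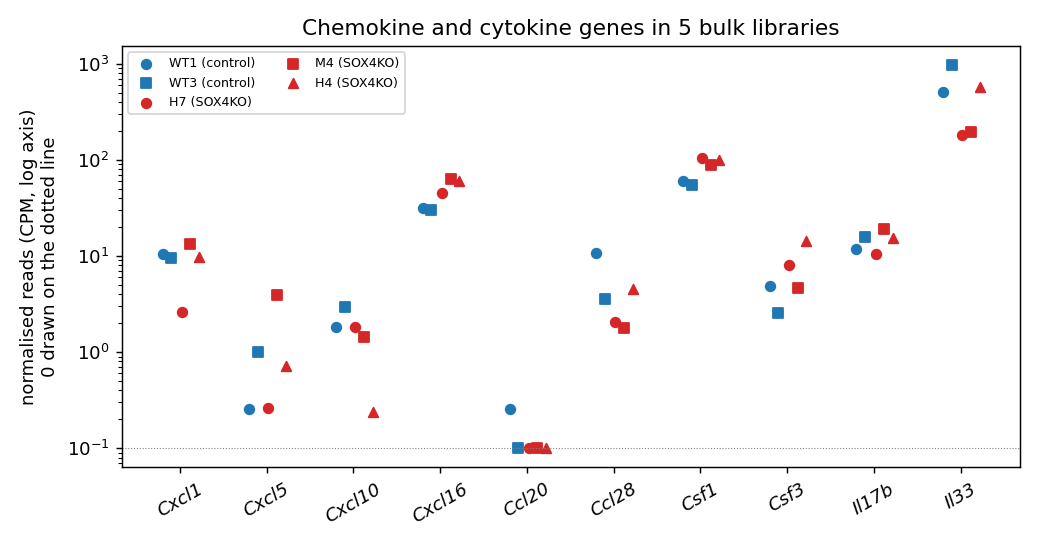
Normalised reads (CPM, log axis) of the 10 genes in each bulk library, with control lines in blue and SOX4KO lines in red, and values of 0 drawn on the dotted line. The SOX4KO points lie above both control points for Csf1 and Cxcl16, and the points of both groups overlap for the other genes.

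In single cells the order of the genes was different. Cxcl1 was the highest of the 10 with 528 CPM in GR17, 575 in GR18 and 424 in GR19, from 4075, 4604 and 3522 UMIs. At least 1 Cxcl1 UMI was found in 87.5% of control cells (95% Clopper-Pearson interval 83.7 to 90.7), 72.4% of GR18 cells (67.5 to 76.9) and 76.8% of GR19 cells (72.1 to 81.0). After each cell was thinned to 5000 UMIs the shares were 68.4%, 52.1% and 55.9%. The control library had the largest share of Cxcl1-positive cells, while GR18 had the largest level only with 1 well that held 457 of its Cxcl1 UMIs, described below. Intervals here and below cover counting error only.

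Cxcl5 separated the SOX4KO libraries from each other. GR17 had 254 CPM, with an exact Poisson interval of 243 to 266. GR18 had 314 CPM (302 to 327), whereas GR19 had 43.9 CPM (39.5 to 48.6). GR19 was low in share of cells as well, with 21.8% against 46.3% in GR18 and 60.4% in GR17, or 10.9%, 24.7% and 36.6% after thinning. Much of the RNA sat in few cells. The 10 wells with most Cxcl5 held 40.3% of its UMIs in GR17, 59.6% in GR18 and 61.0% in GR19.

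Csf3 was at 88.3, 81.4 and 87.5 CPM in GR17, GR18 and GR19, so the 3 libraries had overlapping intervals. Csf1 was at 45.0, 57.7 and 54.4 CPM, with 48.0%, 57.7% and 58.0% of cells positive. Cxcl16 was at 49.0, 39.6 and 34.8 CPM, so it was lower in both SOX4KO libraries than in the control library, opposite in direction to the bulk lines. The Cxcl16 interval of GR18 (35.3 to 44.2) touched that of GR17 (44.2 to 54.2), and that of GR19 (30.9 to 39.1) lay below it. Csf1 was higher in both SOX4KO libraries than in the control library, although the interval of GR19 (49.5 to 59.6) touched that of GR17 (40.4 to 50.0). With 1 control library no test of genotype was possible.

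Il17b was at 13.6 CPM (11.1 to 16.5) in GR17. GR18 had 37.1 CPM (33.0 to 41.5), and GR19 had 27.8 CPM (24.4 to 31.7). On the scale of log2(CPM + 1) it was 1.38 and 0.98 above the control library, so GR18 was past 2-fold and GR19 just short of it. The share of positive cells was 20.1% in GR17, 34.4% in GR18 and 29.0% in GR19. Both SOX4KO libraries were therefore high for Il17b, whereas the bulk lines overlapped.

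Ccl20, which attracts cells bearing CCR6, was at 21.6, 26.2 and 16 CPM in GR17, GR18 and GR19, in 16%, 11.7% and 8.29% of cells. Il33 was at only 5.19, 10.9 and 6.15 CPM. Ccl28 had a UMI in 0 of 369 control cells. By the limit of 3 counts, this allows up to 0.813% of cells with a UMI, and it sets no limit on cells that express the gene below detection. GR18 had 6 Ccl28 UMIs and GR19 had 3.

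Cxcl10 was the 1 member past 2-fold in the same direction in both SOX4KO libraries, against 3% of all genes with a UMI. It was at 2.33 CPM in GR17, 6.74 in GR18 and 6.99 in GR19. In GR18, 42 of its 54 UMIs came from 1 well, and in GR19 47 of 58 did. The share of positive cells was 2.17%, 1.90% and 2.21%, which differed by less than the counting intervals. Of the 7 members with a mean of at least 20 CPM, 0 were past 2-fold in both libraries, against 2.24% of genes at that level.

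The GR19 well with most Cxcl10 also held 42 of the 45 UMIs of Itgam in that library. Itgam encodes an integrin of myeloid cells, and 4 wells had at least 4 of its UMIs, 3 in GR18 and 1 in GR19. None of the 4 had a UMI of the leukocyte marker Ptprc, which had 0 to 1 UMI in each whole library. They had 2 to 6 UMIs of Epcam, 1 to 24 of Krt8 and 1 to 7 of Krt14. Each well gave 0.0118% to 0.0526% of the Krt14 UMIs of its library and 0.0176% to 0.422% of the Krt8 UMIs. What kind of cell these wells held was not tested. The 10 leukocyte markers, of which 5 were in the single-cell tables, summed to 2.98 CPM in GR17, 9.86 in GR18 and 7.95 in GR19. A GR18 well among the 4 held 69 UMIs of Ccl20, 457 of Cxcl1, 390 of Cxcl5, 33 of Cxcl16 and 227 of Cxcl2. This well alone gave 32.9% of the Ccl20 UMIs of GR18 and 15.5% of its Cxcl5 UMIs.

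Without these 4 wells Cxcl10 was at 5.92 CPM in GR18 and 1.33 in GR19, and no member was past 2-fold in both libraries. Ccl20 was then at 16.6 CPM in GR18, below the control library rather than above it. Cxcl1 was then at 517 CPM in GR18, also below the control library. Cxcl5 stayed above it with 266 CPM.

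**Figure D2:**
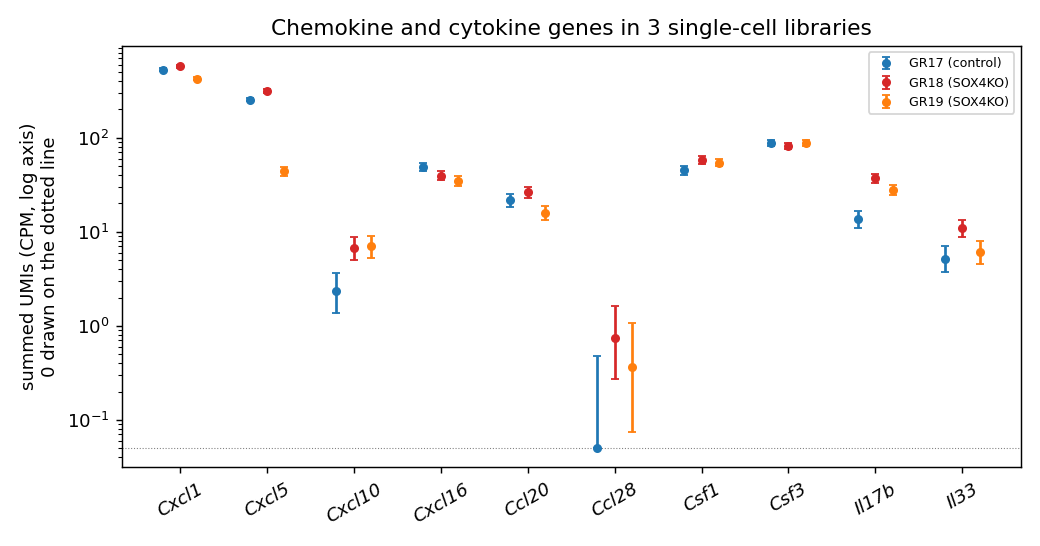
Summed UMIs (CPM, log axis) of the 10 genes in the control library (blue) and the 2 SOX4KO libraries (red and orange), with exact 95% Poisson intervals as bars and 0 drawn on the dotted line. Cxcl5 is lowest in GR19, and Il17b is higher in both SOX4KO libraries than in the control library.

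Among the SOX4KO cells that could be named, Ccl20, Cxcl1 and Csf3 were at higher CPM in luminal-like than in basal-like cells, and Il17b was at higher CPM in basal-like cells. Cells were clustered without the 10 genes and without other chemokine and cytokine genes, of which 23 had been among the variable genes. Of 6 clusters, 2 were luminal-like and 1 basal-like by median marker levels, and 3 stayed unnamed. Median log2 levels of S phase and of G2 or M phase markers, against the other clusters, were -1.33 and -1.8 in basal-like cluster 2. They were -1.39 and -1.45 in luminal-like cluster 4, but 1.02 and 0.66 in luminal-like cluster 5. The 2 classes therefore differ in cell cycle too, and its part in the differences below was not tested. The cutoff for a name was set after seeing the data and left 90.0% of GR17 cells, 42.3% of GR18 cells and 37.3% of GR19 cells in unnamed clusters. The comparison was made in GR18 and GR19, since GR17 had 9 basal-like cells.

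Il17b was at 2.74 CPM in luminal-like and 103 CPM in basal-like cells of GR18, and at 6.19 and 72.3 CPM in GR19. Csf3 ran the other way, with 168 CPM in luminal-like and 12.0 in basal-like cells of GR18 and 156 and 9.12 CPM in GR19. For Ccl20, luminal-like cells had 170 UMIs in GR18 and 120 in GR19, and basal-like cells had 1 and 0. Cxcl1 was less divided, with 988 against 298 CPM in GR18 and 621 against 195 CPM in GR19. Unnamed clusters 3 and 6 held SOX4KO cells only, with 13 and 9 of 16 basal-like markers and 0 of 17 luminal-like markers above the other clusters. There Csf3 was at 60.5 and 37.9 CPM, Cxcl1 at 431 and 298, Il17b at 29 and 29.8 and Ccl20 at 12.2 and 1.22. The basal-like values above are thus those of cluster 2 only.

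These 4 of the 10 genes were at least 2-fold apart in the same direction in both libraries, against 7.66% of genes with a UMI. They were 4 of the 7 members with a mean of at least 20 CPM, where 7.93% of genes were this far apart. No weight is put on these shares, since the genes and the cutoff for a name were chosen with the data known. All 4 were also this far apart without the 4 Itgam wells, which all fell in luminal-like cluster 5. Itgam and Cd209c were among the leading genes of that cluster, and the part of these wells in that was not tested. Without the 4 wells Ccl20 in cluster 5 was at 34.4 CPM in place of 53.8, below luminal-like cluster 4 at 44.1. Cxcl1 in cluster 5 was then at 722 CPM against 694 in cluster 4, with overlapping Poisson intervals. Cxcl5 was 2.33 higher in luminal-like cells on the log2(CPM + 1) scale in GR18 and 0.41 higher in GR19. Il33 was 3.02 higher in GR18 and 0.96 higher in GR19, from 75 and 37 luminal-like UMIs. Csf1 (-0.51 and 0.23) and Cxcl16 (0.94 and 0.78) were within 2-fold in both. In the 28 luminal-like cells of GR17, Csf3 was at 173 CPM, Ccl20 at 72.8 and Il17b at 1.62, against 81.9, 17.4 and 14.1 CPM in its 332 unnamed cells.

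**Figure D3:**
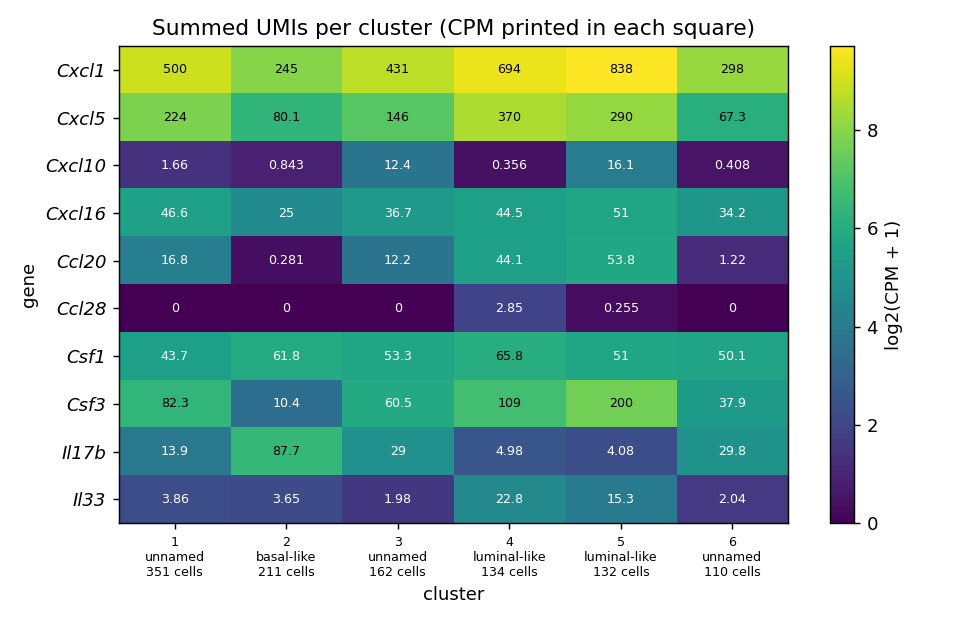
Summed UMIs per cluster as log2(CPM + 1) in color, with CPM printed in each square, for the 10 genes (rows) in 6 clusters of all cells (columns). Csf3 and Cxcl1 are highest in luminal-like cluster 5, Ccl20 is highest there only with the 4 Itgam wells (34.4 CPM without them, against 44.1 in cluster 4), and Il17b is highest in basal-like cluster 2 with 87.7 CPM. Cluster 1 is mostly control cells.

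Cell by cell, Cxcl1, Cxcl5 and Csf3 tended to be high in the same cells. Pearson correlations of log-normalized values within a library are given as a description, over 362 to 369 cells of 1 library that differ in depth. With the log of a cell's UMI total, Csf3 had r = 0.23 in GR17, 0.31 in GR18 and 0.39 in GR19, Cxcl1 had 0.19, 0.28 and 0.23, and Cxcl5 had 0.14, 0.23 and 0.05. The part of depth in the correlations that follow was not tested. Cxcl1 and Cxcl5 had r = 0.47 in GR17, 0.56 in GR18 and 0.28 in GR19. Cxcl5 and Csf3 had 0.36, 0.47 and 0.10, and Cxcl1 and Csf3 had 0.30, 0.44 and 0.35. Ccl20 and Cxcl1 had 0.23, 0.38 and 0.34. Il17b and Cxcl1 had negative values in each library, -0.05, -0.29 and -0.16.

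The genes most like each member were sought among 8836 genes found in at least 10% of cells of each library. For Cxcl1 they were Cxcl5, the inflammatory cytokine gene Tnf (mean r = 0.37) and Csf3. For Csf3 they were Lcn2 (mean r = 0.40), which encodes an iron-scavenging protein of luminal and inflamed epithelium, the ferritin gene Fth1 (0.38) and Cxcl1. For Cxcl5 they were Cxcl1, Csf3 and Lcn2. For Il17b they were Sparc (0.40), the basal keratin gene Krt14 (0.35) and Slc6a6 (0.31). Cxcl16 had Cxcl1 (0.23), Cxcl5 (0.22) and Cd209c (0.20), and Csf1 had Fst (0.17), Lgals9 (0.16) and Ctgf (0.14), so no gene tracked either closely. Without the 4 Itgam wells the genes most like Cxcl16 were Anxa3 (0.22), Cxcl1 (0.21) and Ccnd1 (0.19), and Fbxo32 (0.15) took the place of Ctgf for Csf1.

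The rank of several members differed between bulk and single cells. Among 13851 genes in both kinds of table, Il33 stood at percentile 98.9 by bulk RPKM and 39.9 by single-cell CPM. Cxcl5 stood at 24.5 and 95.1, Ccl20 at 12.9 and 58.1, Csf3 at 50.0 and 86.4 and Cxcl1 at 50.0 and 98.4. Csf1 (78.0 and 77.9) and Cxcl16 (77.7 and 72.8) ranked alike in both. RPKM and UMI counts scale differently with gene length, and why these ranks differ was not tested.

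**Figure D4:**
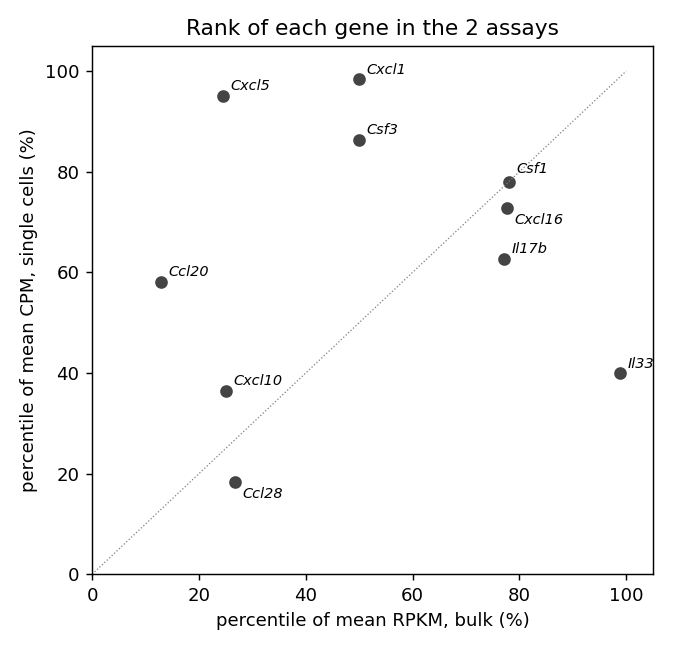
Percentile of each gene by mean RPKM over 5 bulk libraries (horizontal axis) and by mean CPM over 3 single-cell libraries (vertical axis), with equal ranks on the dotted line. Cxcl1, Cxcl5, Csf3 and Ccl20 lie far above the line, Il33 far below it, and Csf1 and Cxcl16 near it.

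Among 32 other chemokine ligands, 8 were tested in bulk and 2 were called, both higher in SOX4KO lines. Cxcl12, the ligand of CXCR4, was at 4.13 and 17.3 CPM in the controls and at 127, 125 and 151 CPM in H7, M4 and H4 (log2 fold change 3.61, standard error 0.47, edgeR adjusted p = 0.013). Ccl17, the ligand of CCR4, was low throughout, from 0.258 CPM in WT1 to 6.82 in M4, with an edgeR adjusted p of 0.0948. None of 11 tested genes among 47 other cytokine ligands was called by edgeR, and 1 had an unadjusted p under 0.05.

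Of 13 genes for receptors of the 10 ligands, Il1rap and Il17ra passed the filter on low counts in bulk and neither was called, with edgeR adjusted p of 0.904 and 0.79. Il1rap, a shared subunit of IL-1 family receptors, had 1151 reads in the 5 bulk libraries together, and Il17ra, a shared subunit of IL-17 receptors, had 474. Il17rb had 43 reads, and the other 10 had 0 to 2 reads each. Among these 10, Cxcr2 had 0 bulk reads but 31, 38 and 51 UMIs in GR17, GR18 and GR19. Il1rl1 had 2, 2 and 4 UMIs. The rest of the 10 were not among the genes listed for single cells, so they have no UMI count. Of 35 other receptors, 19 were tested in bulk and 3 called. Cxcr4 fell from 44.9 and 43.7 CPM in the controls to 12.5, 7.90 and 18.6 CPM (log2 fold change -1.74, edgeR adjusted p = 0.0287), while Ackr4, a scavenger of CC chemokines, and the TNF receptor gene Tnfrsf1b rose by 3.50 and 1.34 on the log2 scale.

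Of 25 tested genes of the NF-kB pathway and its targets, 1 was called. This was Sod2, a mitochondrial superoxide dismutase, at 125 and 128 CPM in the controls and 378, 389 and 277 CPM in SOX4KO lines (edgeR adjusted p = 0.0146). The median log2 fold change of these 25 genes was 0.14, against 0.01 over all genes tested. Of 6 tested IL-17 response genes 0 were called by edgeR and 1 had an unadjusted p under 0.05; Lcn2 was at 2160 and 2170 CPM in the controls and at 3150, 3140 and 5880 CPM in H7, M4 and H4.

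Interferon response genes, of which Cxcl10 is a known companion, had a list median below 0 in bulk, while most of them were higher in both SOX4KO single-cell libraries. In bulk, 17 of 20 had values below 0 (list median -0.75 on the log2 scale), and 1, Psmb8, was called lower (edgeR adjusted p = 0.0626). M4 was below both controls for 18 of the 20 genes and H4 for 18, whereas H7 was below both for 5, between them for 9 and above both for 6. Irf7 was at 1150 and 1080 CPM in the controls, 1050 in H7, 201 in M4 and 356 in H4. Of the 20 genes, 19 were in the single-cell tables, and 12 of these were at least 2-fold higher in both SOX4KO libraries. Over all genes with a UMI, 3% were this far from the control library in either direction. Irf7 was at 4.15 CPM in GR17, 91.9 in GR18 and 81.0 in GR19. The NF-kB, IL-17 and interferon lists, with 25, 6 and 20 genes tested in the main bulk fit, were also counted as 1 set. In the main fit 2 of its genes were called, and 2 also without M4 and 2 without H4. Without H7, 20 were called, 16 lower and 4 higher, against 646 over all genes, 240 of them lower. Calls without H7 were not split by list, so the 20 are not a count of interferon genes.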

How the data were processed

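Per the labels, total RNA of whole organoids was sequenced with a directional kit, and single cells were sequenced in plates. The deposited values are raw counts, without normalization: reads on each gene in bulk, and UMIs on each gene in each well. The submitters' notes name STAR 2.4.2a, HTSeq and the build mm9; the strand setting of counting is not given in the sources used here. Rows that name no gene held 71.6% to 83.9% of bulk counts and were left out. Identifiers were matched to GENCODE (GRCm38), which gave symbols and exon lengths for RPKM.

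Bulk counts were fitted with edgeR 4.0.16 under R 4.3.3, using filterByExpr, TMM factors, the quasi-likelihood test and Benjamini-Hochberg adjustment over all genes, with calls under 0.1; p-values measure the spread between lines. DESeq2 1.42.0 was an alternative. Wells with at least 1000 UMIs were kept, and spike-ins were left out. Plates share well numbers by design, 348 of them among kept wells. UMIs were summed per library as CPM. Clusters were made with Seurat 5.3.0 (10 principal components, resolution 0.5), and no doublet caller was run.

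The 10 genes and all gene lists were chosen with earlier results of these data known. From each list, called genes (up to 6) and the 3 highest were eligible for naming. Irf7, Cxcl2, Itgam and the wells they concern were singled out after their values were seen, as was the minimum of 4 Itgam UMIs.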

Additional observations from a re-analysis of the deposited data

How the results depend on the processing

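With 2 control lines the bulk calls rest on both. Leaving out each line in turn gave 56 to 1006 called genes, 0 to 2 called members, 1 to 6 other chemokine, cytokine and receptor genes and 0 to 20 NF-kB, IL-17 and interferon genes. Without a filter on low counts these numbers were 1686, 5, 11 and 22, and at an adjusted p under 0.05 they were 354, 0, 3 and 1. The DESeq2 Wald test called 9 other chemokine, cytokine and receptor genes and 7 NF-kB, IL-17 and interferon genes. The cause of these shifts was not tested, except that a line left out means fewer samples.

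Over the same omissions the log2 fold change of Cxcl1 ran from -0.68 to 0.18 (without H7), and that of Il17b from -0.11 (without M4) and -0.09 (without WT1) to 0.33. The number of members past 2-fold in both SOX4KO single-cell libraries was 0 with a pseudocount of 10 CPM, 0 without the 4 Itgam wells and 0 among members with a mean of at least 20 CPM (the last 2 chosen after seeing the data). It was 2 without wells over 2 times the median UMI count, and 2 with either SOX4KO library alone. The 4 members apart between luminal-like and basal-like cells were 4 or 5 under each clustering tried. No paired analysis was possible because the labels number no replicates.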

Other observations

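Cxcl2, a close relative of Cxcl1 that was no member of the set, was at 1.30 CPM in GR17, 41.1 in GR18 and 4.58 in GR19, and 69.0% of its GR18 UMIs came from the 1 well rich in Cxcl1 and Itgam. Ccl2, which attracts monocytes, was at 61.7 CPM in GR17, 48.2 in GR18 and 25.8 in GR19, and Tnf at 103, 80.4 and 67.5 CPM, so both were lower in each SOX4KO library than in the 1 control library. In bulk Tnf was at 20.1 and 15.3 CPM in the controls and at 13.5, 15.4 and 20.3 CPM in H7, M4 and H4. The groups overlapped, and Tnf was not called (edgeR adjusted p = 0.895). Ccl2 had 5 bulk reads in all. Adam10, which encodes a protease known to release CXCL16 from the membrane, was at 89.8 CPM in GR17, 144 in GR18 and 133 in GR19. In bulk it was at 286 and 313 CPM in the controls and at 431, 326 and 452 CPM in H7, M4 and H4, and it was not called (edgeR adjusted p = 0.32).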
